A study of Homo sapiens with 8 samples.

Results

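The integrin genes of epithelial cells were followed in the human colorectal cancer line HCT-116 after knockdown of *HHEX*, of *YAP1* and *WWTR1* (the gene for TAZ), or of *TEAD1*, *TEAD2*, *TEAD3* and *TEAD4*. They are the 10 genes *ITGA2*, *ITGA3*, *ITGA5*, *ITGA6*, *ITGAV*, *ITGB1*, *ITGB4*, *ITGB5*, *ITGB6* and *ITGB8*, chosen by name, with earlier results of these data known, out of 26 integrin genes and 20030 rows in the deposited values. Bulk mRNA was sequenced in 8 libraries, of which 2 received a control siRNA (siNC), 3 an siRNA to *HHEX* (siHHEX), 2 a pair of siRNAs to *YAP1* and to *WWTR1* (siYAP/TAZ) and 1 the siRNAs to all *TEAD* genes (siTEAD1/2/3/4). All 8 came from the same parental line and all had been transfected, the siNC cells with an siRNA of no intended target. The libraries of siHHEX and siYAP/TAZ carry the numbers under which the methods list their siRNAs, and replicates may thus differ in siRNA. No source used here says whether they were separate cultures, and the p-values measure only the spread between these libraries. Levels are in FPKM, that is, fragments relative to transcript length and to the fragments mapped in that library. The number of reads is unknown. Depth was estimated only from low values already close to those of siNC 1, so that an unequal depth could not be seen. siTEAD1/2/3/4 has no replicate and was not tested.

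Integrins are receptors for the extracellular matrix, each made of 1 α and 1 β subunit. In intestinal epithelium, α2β1 binds collagen, α3β1, α6β1 and α6β4 bind laminin of the basement membrane, and α5β1 and the αv integrins bind fibronectin, vitronectin or latent TGF-β. The α6β4 integrin is anchored to keratin in hemidesmosomes, while most of the others connect to actin in focal adhesions. YAP and TAZ are coactivators that reach DNA mainly through the TEAD factors, and HHEX is a homeodomain transcription factor.

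The knockdown targets were read first. *HHEX* was at 8.60 and 9.06 FPKM in siNC, at 3.25, 3.54 and 1.85 FPKM in siHHEX 1, 2 and 3, at 4.80 and 7.12 FPKM in siYAP/TAZ 1 and 2 and at 7.75 FPKM in siTEAD1/2/3/4. It fell in siHHEX by 1.37 on the log2(FPKM + 1) scale (SE 0.217, adjusted p = 0.0054), and all 3 siHHEX libraries lay below the other 5. On this scale, which is used for every change given here, the change of low genes is understated. *YAP1* was at 20.2 and 19.7 FPKM in siNC and at 6.90 and 8.39 FPKM in siYAP/TAZ, a difference of -1.28 (SE 0.383, adjusted p = 0.0681) that passed the test once a trend on GC content was taken off (-1.39, adjusted p = 0.0354). *WWTR1* was at 6.80 and 6.72 FPKM in siNC and at 2.64 and 2.58 FPKM in siYAP/TAZ, and fell by 1.10 (SE 0.195, adjusted p = 0.0156). *YAP1* was also low in 2 of the 3 siHHEX libraries, at 5.77, 17.4 and 6.93 FPKM in siHHEX 1, 2 and 3 (log2 change -1.07, SE 0.35, adjusted p = 0.0429), a call lost after that GC correction (-0.75, adjusted p = 0.161). *WWTR1* was at 5.12, 6.12 and 8.55 FPKM there and did not pass the test (-0.06, adjusted p = 0.82, and 0.31, adjusted p = 0.362, after that correction). *TEAD1* had 18.6 ± 0.551 FPKM (SD, n = 2) in siNC, against 6.99, 10.2 and 5.30 FPKM in siHHEX, where it fell by 1.25 (SE 0.208, adjusted p = 0.00642). *TEAD2* rose in siHHEX by 0.78 (SE 0.137, adjusted p = 0.00709; 0.47 and 0.0736 after that correction), and *TEAD4* fell in siYAP/TAZ by 0.63 (SE 0.133, adjusted p = 0.025). In siHHEX, *TEAD4* was at -0.11 (adjusted p = 0.503) and passed the test only after the correction (-0.50, adjusted p = 0.0312). In siTEAD1/2/3/4, *TEAD1* was at 9.02, *TEAD2* at 2.73 and *TEAD4* at 5.56 FPKM, against 18.6, 3.78 and 20.8 FPKM in the siNC mean. *TEAD3* was at 9.08 FPKM there against 7.36 and 6.99 FPKM in siNC, so that 3 of the 4 targets were lower in the library labelled siTEAD1/2/3/4 and *TEAD3* was not.

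HCT-116 cells had the mRNA of 8 of the 10 integrin genes at several FPKM or more, and these 8 passed the filter of at least 1 FPKM in at least 2 libraries. Because FPKM is scaled by length, levels can be ordered roughly between genes, though it is not corrected for their GC content. In siNC, *ITGB1*, the common β1 subunit, was the highest at 93.4 ± 4.02 FPKM (SD, n = 2), above 94.6% of the 10677 genes that passed the filter. *ITGA3* followed at 48.1 ± 1.49, *ITGA6* at 24.1 ± 0.276, *ITGB4* at 18.1 ± 1.33, *ITGB5* at 14.4 ± 0.148, *ITGA5* at 11.7 ± 0.853, *ITGA2* at 9.14 ± 0.724 and *ITGAV* at 8.10 ± 0.162 FPKM. The siNC libraries kept neighbours in this order apart without overlap, the closest pair being *ITGA2* at 8.63 and 9.66 FPKM and *ITGAV* at 7.98 and 8.21 FPKM. *ITGB8* and *ITGB6*, whose products pair with αv and bind latent TGF-β, were near the bottom. *ITGB8* lay between 0.0724 and 0.214 FPKM over the 8 libraries, and its groups overlapped. *ITGB6* was listed at 0 in 5 libraries and at 0.0661, 0.0173 and 0.0786 FPKM in siNC 2, siHHEX 3 and siYAP/TAZ 1. Neither entered the main tests, and neither was called in siHHEX or siYAP/TAZ with no filter on low values. No direction can be read from their values, since the reads behind them are unknown. Of the 16 other integrin genes, only *ITGAE* passed the filter, at 2.54 and 2.19 FPKM in siNC, and it did not pass the test in siHHEX (log2 change 0.21, adjusted p = 0.211) or in siYAP/TAZ (0.07, adjusted p = 0.784).

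**Figure D1:**
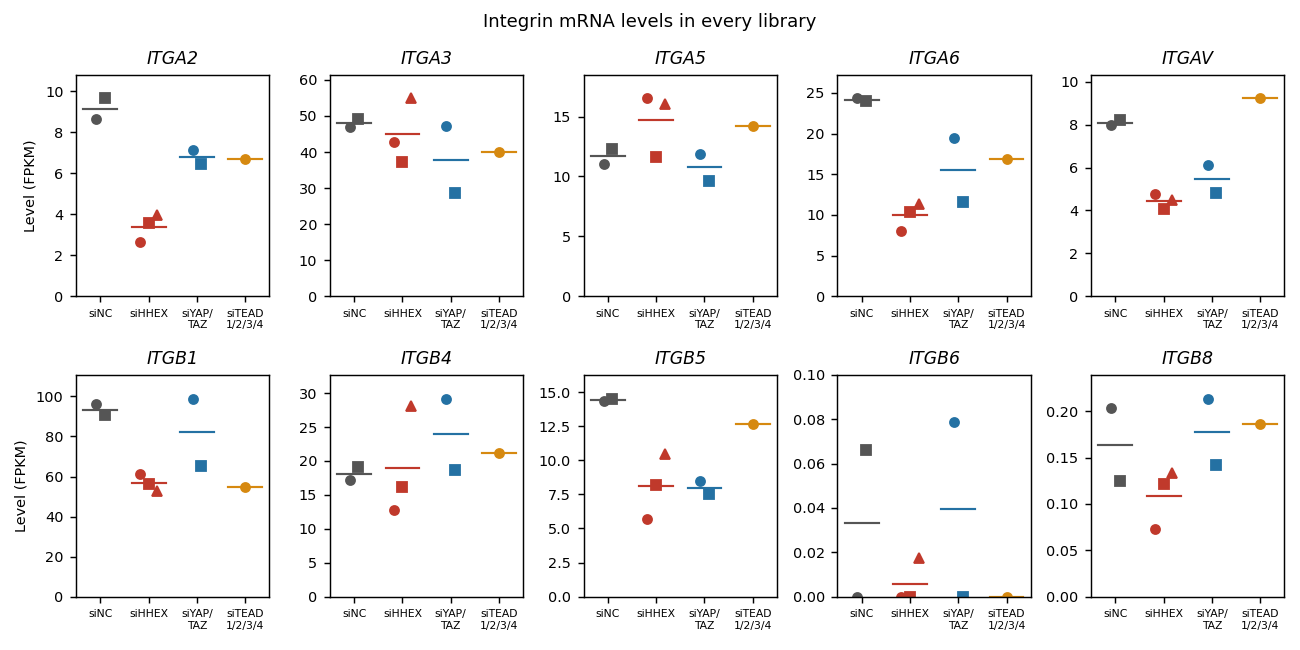
Level in FPKM (linear axes, each from 0) of the 10 integrin genes in every library, with 1 panel per gene; circles, squares and triangles are the libraries numbered 1, 2 and 3 of a condition and the horizontal lines are condition means. The siHHEX points of *ITGA2*, *ITGA6*, *ITGAV*, *ITGB1* and *ITGB5* all sit below both siNC points, while those of *ITGA3* and *ITGB4* spread across them.

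After knockdown of *HHEX*, 5 of the 8 tested integrin genes fell and 0 rose, with 2 of these calls kept after a correction for GC content and transcript length and 0 without either siNC library. The genes that fell were *ITGA2* (collagen binding), *ITGA6* (laminin binding), *ITGAV* and *ITGB5* (vitronectin binding) and *ITGB1*, of which *ITGA2* and *ITGB5* were the 2. By the same rule, an adjusted p under 0.05, 16.9% of all tested genes were lower in siHHEX and 16% were higher. The median change of the 8 genes was -0.73, against -0.0055 over all tested genes. By the study's criterion, a fold over 2 with an unadjusted p under 0.05, *ITGA2* and *ITGA6* were lower, where 0.927% of the tested genes were lower and 0.702% higher. In these bulk libraries, fewer cells of a kind and less RNA per cell cannot be told apart.

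*ITGA2* and *ITGA6* had the largest changes, -1.22 and -1.21, which differed by far less than their errors, while after the GC correction *ITGB5* was the largest at -0.93. *ITGA2* was at 8.63 and 9.66 FPKM in siNC, at 2.63, 3.60 and 3.95 FPKM in siHHEX 1, 2 and 3, at 7.13 and 6.45 FPKM in siYAP/TAZ and at 6.69 FPKM in siTEAD1/2/3/4. The siHHEX libraries were the lowest 3 of the 8, and the remaining 3 knockdown libraries lay between them and siNC. The fall in siHHEX was 1.22 (SE 0.155, 95% interval -1.57 to -0.87, adjusted p = 0.00384). *ITGA2* encodes the α2 subunit and lies on chromosome 5 of GRCh38, from 52989340 to 53094779, with a transcript of 30 exons.

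Of the laminin-binding α subunits, *ITGA6* fell and *ITGA3* did not pass the test, and the difference between the genes was not tested. *ITGA6* was at 24.3 and 23.9 FPKM in siNC, at 8.04, 10.4 and 11.4 FPKM in siHHEX, at 19.5 and 11.5 FPKM in siYAP/TAZ and at 16.9 FPKM in siTEAD1/2/3/4. All knockdown libraries were below siNC, with siYAP/TAZ 2 close to the siHHEX libraries. *ITGA6* fell in siHHEX by 1.21 (SE 0.21, 95% interval -1.69 to -0.74, adjusted p = 0.00696), and after the GC correction was at -0.85 (adjusted p = 0.053). *ITGA3*, whose product pairs with β1, was at 47.1 and 49.2 FPKM in siNC and at 42.8, 37.1 and 54.9 FPKM in siHHEX, on either side of siNC. Its change in siHHEX was -0.11 (95% interval -0.60 to 0.37, adjusted p = 0.689). *ITGA6* lies on chromosome 2 (172427354 to 172506459), and its exons overlap those of 3 antisense lncRNA genes. *ITGA5*, *ITGAV* and *ITGB8* each overlap 1 such gene, and it is not stated whether the counting used strand, so that reads of these pairs may not be told apart.

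*ITGB4*, the partner of α6 in hemidesmosomes, did not pass the test in siHHEX, and its difference from *ITGA6* was not tested. It was at 17.2 and 19.1 FPKM in siNC, at 12.8, 16.1 and 28.2 FPKM in siHHEX, at 29.2 and 18.7 FPKM in siYAP/TAZ and at 21.2 FPKM in siTEAD1/2/3/4. The siHHEX libraries ranged more widely than any other group and enclosed siNC, and the fitted change was -0.0066 (95% interval -0.66 to 0.65, adjusted p = 0.987). The ratio of *ITGA6* to *ITGB4* was above 1 in siNC only, at 1.42 and 1.26. It was 0.629, 0.647 and 0.404 in siHHEX, 0.668 and 0.616 in siYAP/TAZ and 0.797 in siTEAD1/2/3/4, as a description with no test. These ratios are not corrected for GC content, which is 42.5% in *ITGA6* and 63.6% in *ITGB4*; after the GC correction, the siHHEX changes were -0.85 and -0.30.

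*ITGB1* encodes the β subunit that α2, α3, α5, α6 and αv share. It was at 96.2 and 90.5 FPKM in siNC, at 61.2, 56.0 and 52.9 FPKM in siHHEX, at 98.9 and 65.4 FPKM in siYAP/TAZ and at 55.0 FPKM in siTEAD1/2/3/4. The siYAP/TAZ libraries were split, 1 above siNC and 1 near siHHEX, and siTEAD1/2/3/4 was within the siHHEX range. *ITGB1* fell in siHHEX by 0.71 (SE 0.165, 95% interval -1.08 to -0.34, adjusted p = 0.0145), a call lost after the GC correction (-0.29, adjusted p = 0.352). In the windows around the start sites of 8 of the 10 genes (13 windows of RefSeq GRCh38.p14, from 250 bases before to 50 after the start), the TEAD motif GGAATG, searched on both strands with CATTCC, was found in 2 of the 13 windows, 1 of *ITGB1* and 1 of *ITGA5*. It is present in 14.0% of all 35116 such windows. Both matches are shown because these factors were knocked down here, with the motif in capitals. The *ITGB1* match is at chr10:32958394-32958423 on the minus strand, its motif starting 182 bases before the start site, and the *ITGA5* match at chr12:54419330-54419359 on the minus strand, 82 bases before.
ITGB1: gcggcgggagaGGAATGcgtttccggaggg
ITGA5: ccagggacccaGGAATGcccccccgccagc
The letters describe the windows and no binding was measured here. The AP-1 motif TGANTCA was found in 1 of the 13 windows, that of *ITGA5* (7.71% of all windows), and the homeodomain core ATTAA in 4 of the 13, of *ITGAV*, *ITGB1*, *ITGB5* and *ITGB6* (24.4% of all windows), each searched on both strands. *ITGA3* and *ITGB4* had no entry.

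Of the fibronectin- and vitronectin-binding subunits, *ITGAV* and *ITGB5* fell in siHHEX and *ITGA5* did not pass the test. *ITGA5*, the α subunit of the main fibronectin receptor, was at 11.1 and 12.3 FPKM in siNC and at 16.5, 11.6 and 16.1 FPKM in siHHEX, 2 of the 3 libraries being above siNC and 1 within it. Its change was 0.30 (SE 0.17, 95% interval -0.09 to 0.68, adjusted p = 0.191). Without siHHEX 2 this change was 0.45 (adjusted p = 0.028), and *ITGA5* was then called higher. *ITGAV* was at 7.98 and 8.21 FPKM in siNC, at 4.76, 4.05 and 4.48 FPKM in siHHEX, at 6.12 and 4.83 FPKM in siYAP/TAZ and at 9.23 FPKM in siTEAD1/2/3/4. All siHHEX and siYAP/TAZ libraries were below siNC and siTEAD1/2/3/4 was above it. *ITGAV* fell in siHHEX by 0.75 (SE 0.134, 95% interval -1.05 to -0.44, adjusted p = 0.00748), a call lost after the GC correction (-0.27, adjusted p = 0.339). *ITGB5*, a partner of αv, was at 14.3 and 14.5 FPKM in siNC, at 5.67, 8.22 and 10.5 FPKM in siHHEX, at 8.47 and 7.53 FPKM in siYAP/TAZ and at 12.7 FPKM in siTEAD1/2/3/4. Here siHHEX and siYAP/TAZ overlapped and all their libraries were below siNC. *ITGB5* fell in siHHEX by 0.79 (SE 0.202, 95% interval -1.25 to -0.34, adjusted p = 0.0191), a call lost with no filter on low values (adjusted p = 0.0733).

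In siHHEX, the values of these 5 genes did not overlap those of siNC, which held for 33.8% of all tested genes in the lower direction and 33.1% in the higher. All 5 calls were kept without siHHEX 1, without siHHEX 2 and without siHHEX 3. Without siNC 1 or without siNC 2, 0 integrin genes were called, with changes of the 5 genes between -1.29 and -0.67 and adjusted p between 0.0589 and 0.131; with a lone siNC library assumed to vary like the other groups, the share of all genes called lower was 0.0843% without siNC 1 and 0.112% without siNC 2.

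**Figure D2:**
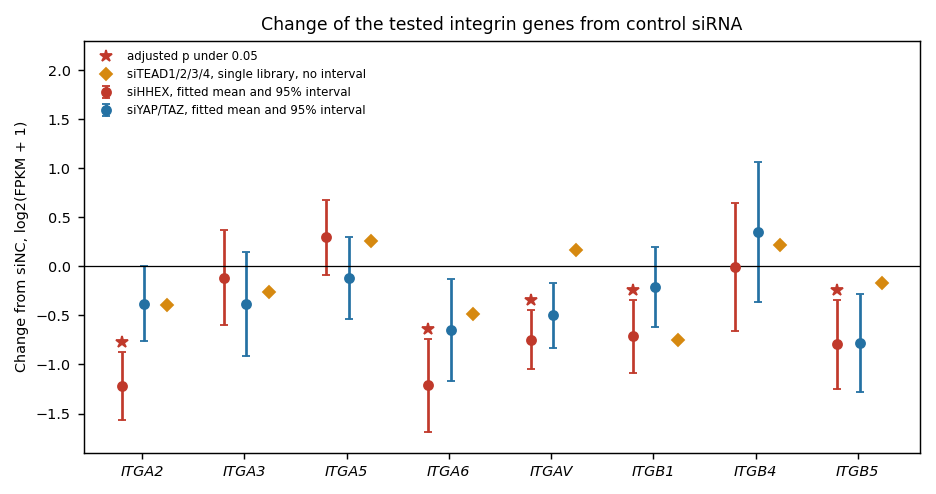
Change from siNC on log2(FPKM + 1) (y axis) of the 8 tested integrin genes (x axis), with circles for the fitted siHHEX and siYAP/TAZ means, bars for their 95% intervals, diamonds for the single siTEAD1/2/3/4 library and stars for an adjusted p under 0.05. Stars stand over 5 siHHEX values and over 0 siYAP/TAZ values; the siHHEX and siYAP/TAZ points of *ITGB5* lie together at -0.79 and -0.78.

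After knockdown of *YAP1* and *WWTR1*, 0 of the 8 integrin genes passed the test by limma, where 2.13% of all tested genes were lower and 6.15% higher. At an unadjusted p under 0.05, 3 of the 8 were lower, *ITGB5*, *ITGAV* and *ITGA6*, where 7.85% of all tested genes were lower and 19.4% higher. The change of *ITGB5* was -0.78 (SE 0.221, 95% interval -1.28 to -0.28, adjusted p = 0.0603). The change of *ITGA6* was -0.65 (SE 0.23, adjusted p = 0.107), that of *ITGAV* -0.50 (SE 0.147, adjusted p = 0.0667) and that of *ITGA2* -0.38 (SE 0.17, adjusted p = 0.186). The siYAP/TAZ values of these 4 genes did not overlap siNC, as for 24.8% of all tested genes in the lower and 42.9% in the higher direction. *ITGB1* (-0.21, adjusted p = 0.482) and *ITGA5* (-0.11, adjusted p = 0.731) had 1 siYAP/TAZ library within or above siNC and 1 below. *ITGA3*, at 47.2 and 28.6 FPKM, likewise had 1 library within siNC and 1 far below it (-0.38, adjusted p = 0.328). The change of *ITGB4* was 0.35 (95% interval -0.36 to 1.07, adjusted p = 0.51). Library 2 was below library 1 in all 8 tested genes, while 46.1% of all tested genes were lower in library 2. By the study's criterion 0 of the 8 passed, where 0.431% of the tested genes were lower and 1.14% higher. *ITGB5* passed the test in 5 alternative fits, with adjusted p between 0.0163 and 0.0452, among them the fit of siYAP/TAZ and siNC alone. *ITGAV* passed in 3, with adjusted p between 0.0483 and 0.0498. The change of *ITGA6* depended on the library, at -1.005 without siYAP/TAZ 1 and -0.29 without siYAP/TAZ 2.

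In the single library labelled siTEAD1/2/3/4, *ITGB1* was the only integrin gene more than 1.5-fold from the siNC mean, at -0.75; by this rule 2.18% of all tested genes were lower and 4.15% higher. The next differences were -0.49 for *ITGA6*, -0.40 for *ITGA2* and -0.26 for *ITGA3*. The values of *ITGB5* (-0.17), *ITGAV* (0.17), *ITGB4* (0.22) and *ITGA5* (0.26) were smaller or positive, *ITGB4* turning to -0.0226 after the GC correction, and none of these has a replicate.

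siHHEX was also compared directly with siYAP/TAZ, which has no control library in common between its sides. *ITGA2* was lower in siHHEX, with a log2 difference of -0.84 (SE 0.155, 95% interval -1.19 to -0.49, adjusted p = 0.00606), with all 3 siHHEX libraries below both siYAP/TAZ libraries. The difference of *ITGB1* was -0.50 (SE 0.165, 95% interval -0.87 to -0.13, adjusted p = 0.0394), also without overlap. These were 2 of the 8 tested integrin genes, where 25.9% of all tested genes were lower in siHHEX and 13.5% higher, and where the median of all genes was -0.129. Together with *ITGA6* and *ITGAV*, 4 of the 8 had siHHEX values below both siYAP/TAZ values, as had 37.8% of all tested genes, while 23% had them above. By the study's criterion 0 of the 8 passed, where 1.28% of the tested genes were lower and 0.234% higher. The remaining 6 did not pass. The difference was -0.56 (95% interval -1.04 to -0.09, adjusted p = 0.0581) for *ITGA6*, 0.41 (0.03 to 0.79, adjusted p = 0.0805) for *ITGA5* and -0.25 (-0.55 to 0.05, adjusted p = 0.161) for *ITGAV*. For *ITGB5* it was -0.01, with an interval of -0.47 to 0.44, for *ITGA3* 0.27 (-0.22 to 0.75) and for *ITGB4* -0.36 (-1.01 to 0.29). With 1 library left out, the difference ranged from -0.92 to -0.21 for *ITGA6* and from -0.39 to -0.11 for *ITGAV*. The *ITGB1* call was lost in a fit of siHHEX and siYAP/TAZ alone (adjusted p = 0.0624), with a block for the replicate number (adjusted p = 0.0603), after scaling to equal medians (adjusted p = 0.12) and with any siHHEX library or siYAP/TAZ 1 left out, while the *ITGA2* call was kept in each of these. Both calls were lost after the GC correction.

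The integrin genes differ widely in base composition, and the siHHEX libraries differed from siNC along it. *ITGAV*, *ITGB1*, *ITGA2* and *ITGA6* have transcripts of 38.3%, 39.5%, 40.1% and 42.5% GC, *ITGB5* of 54.6%, and *ITGA5*, *ITGA3* and *ITGB4* of 58.0%, 60.9% and 63.6%. Across the 10347 tested genes with a GENCODE transcript, which are not independent replicates, Spearman's rho between a gene's GC content and its change from the siNC mean was 0.679, 0.599 and 0.756 in siHHEX 1, 2 and 3. It was 0.0608 and -0.0517 in siYAP/TAZ 1 and 2, 0.3 in siTEAD1/2/3/4 and 0.211 in size, of opposite sign, in the siNC libraries. In siHHEX, 4 of the 5 integrin genes that fell are thus the 4 with the lowest GC content of those tested.

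**Figure D3:**
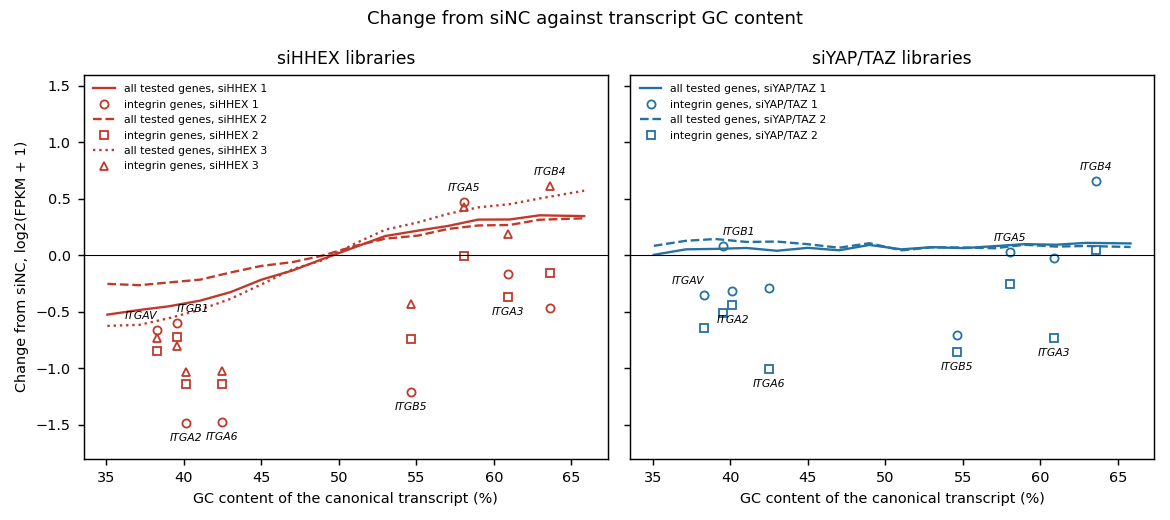
Change from the siNC mean on log2(FPKM + 1) (y axis) against the GC content of the transcript in percent (x axis), with the median of all tested genes in bins of GC content as lines and the 8 tested integrin genes as points, for each siHHEX library (left) and each siYAP/TAZ library (right). The lines rise with GC content in siHHEX and are nearly flat in siYAP/TAZ; 6 of the 8 genes, all but *ITGA5* and *ITGB4*, lie below the line in each siHHEX library.

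When the trend on GC content and transcript length was taken off each library, *ITGA2* and *ITGB5* remained lower in siHHEX, 2 of 8, where 3.16% of all genes were lower and 3.57% higher. The corrected change of *ITGA2* was -0.78 (SE 0.164, adjusted p = 0.0316) and that of *ITGB5* was -0.93 (SE 0.184, adjusted p = 0.0265), larger than without the correction. *ITGA6* was at -0.85 (SE 0.22, adjusted p = 0.053), *ITGB1* at -0.29 (SE 0.185, adjusted p = 0.352) and *ITGAV* at -0.27 (SE 0.166, adjusted p = 0.339). The corrected values of *ITGA3*, *ITGB4* and *ITGA5* were -0.39, -0.30 and 0.07, with adjusted p of 0.229, 0.481 and 0.811. In siYAP/TAZ, the correction brought *ITGB5* past the test (-0.88, SE 0.201, adjusted p = 0.0303), where 6.14% of all genes were lower and 5.33% higher, and left the other 7 outside it. Between siHHEX and siYAP/TAZ, 0 integrin genes were called after the correction, where 3.42% of all genes were lower and 5.46% higher, with -0.26 for *ITGA2* (adjusted p = 0.334) and -0.00033 for *ITGB1* (adjusted p = 0.999). In siTEAD1/2/3/4, *ITGB1* was at -0.69 after the correction and still the only one past 1.5-fold, where 2.64% of all genes were lower and 2.13% higher. All 3 siHHEX libraries carry the GC trend, so that for *ITGB1* and *ITGAV* the trend and the knockdown cannot be told apart. The changes of *ITGA2* and *ITGA6* shrank from -1.22 and -1.21 to -0.78 and -0.85, and the same holds for the part taken off.

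**Figure D4:**
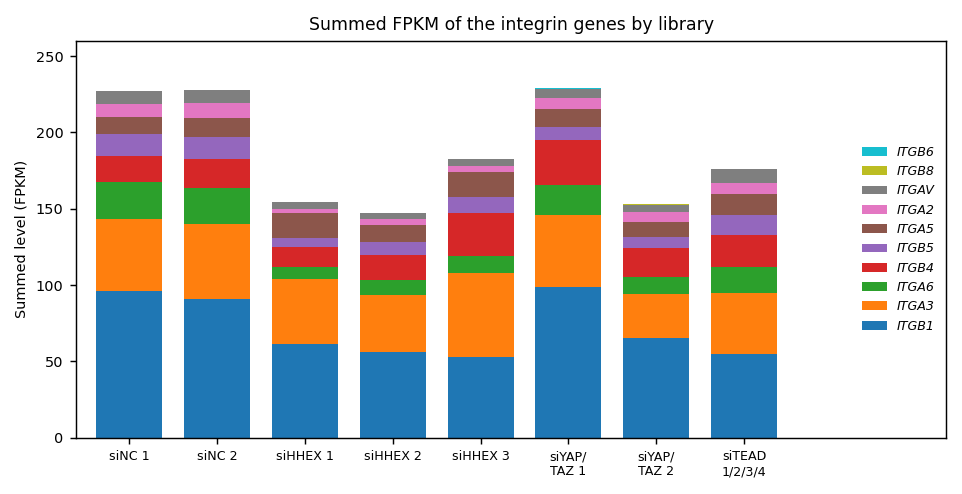
Summed FPKM (y axis, from 0) of the 10 integrin genes in each library (x axis), stacked by gene. The siNC libraries and siYAP/TAZ 1 reach 227 to 229 FPKM and the other libraries 147 to 182 FPKM, with *ITGB1* and *ITGA3* making up the largest blocks.

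Summed over the 10 genes, integrin mRNA was 227.0 and 227.6 FPKM in siNC, 154.5, 147.3 and 182.4 FPKM in siHHEX, 228.7 and 152.7 FPKM in siYAP/TAZ and 176.0 FPKM in siTEAD1/2/3/4. All siHHEX libraries were below siNC, whereas the siYAP/TAZ libraries were split as for *ITGB1*, which had the largest share of the sum in all libraries but siHHEX 3, where *ITGA3* had more. The 5 α genes summed to 99.1 and 103 FPKM in siNC against 74.8, 66.8 and 90.8 FPKM in siHHEX, and the 5 β genes to 128 and 124 FPKM against 79.8, 80.5 and 91.7 FPKM.

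The siRNAs themselves can pair with other mRNAs through bases 2 to 8 of the guide, and the integrin 3′ UTRs were searched for the matching 7-base words. The target sites that hold these words are shown, read from the GENCODE transcripts of *HHEX*, *YAP1* and *WWTR1* on GRCh38, with the word in capitals. They lie in coding sequence at chr10:92694599-92694617 for siHHEX 1 and chr10:92694648-92694666 for siHHEX 2, and in the 3′ UTR at chr10:92695158-92695178 for siHHEX 3, all on the plus strand. Those of siYAP 2 (chr11:102114373-102114391, plus strand) and siTAZ 1 (chr3:149520887-149520905, minus strand) are coding.
siHHEX 1: gtgatcagaggCAAGATTt
siHHEX 2: ggatagctctcAATGTTCg
siHHEX 3: cccacttaatggaAAGGCAAa
siYAP 2: ctggtcagagaTACTTCTt
siTAZ 1: acgttgacttaGGAACTTt
The guide was taken as the complement of the listed strand. The siHHEX 3 siRNA is listed at 21 bases and was searched at 2 lengths, 19 and 21 bases. Of the 5 genes that fell in siHHEX, *ITGB5* has the word of siHHEX 1, which is present in 11.9% of 18011 3′ UTRs, and *ITGAV* that of siHHEX 3 in its longer form, at 2 places (13.1% of 3′ UTRs). *ITGA2*, *ITGA6* and *ITGB1* have none of the siHHEX words. *ITGB5* was lowest in siHHEX 1 (5.67 FPKM), the library of the matching number, and was at 8.22 and 10.5 FPKM in siHHEX 2 and 3. *ITGA2* (2.63 FPKM) and *ITGA6* (8.04 FPKM), with no siHHEX word, were also lowest in siHHEX 1, while *ITGB1* was lowest in siHHEX 3 (52.9 FPKM). *ITGAV* in siHHEX 3, the library of its matching number, was at 4.48 FPKM, between siHHEX 2 (4.05 FPKM) and siHHEX 1 (4.76 FPKM). These are the words in the 3′ UTRs, the *ITGB5* one at chr3:124762994-124763014 on the minus strand and the *ITGAV* ones at chr2:186678399-186678419 and chr2:186680052-186680072 on the plus strand.
ITGB5: aaagaaaCAAGATTgtttggg
ITGAV: aactcttAAGGCAActcactg
ITGAV: tttttgtAAGGCAAacagaat
The word of siYAP 2 is present in *ITGA5*, *ITGA6*, *ITGAV*, *ITGB1* and *ITGB6* (13.1% of all 3′ UTRs), 4 of them tested and all 4 lower in siYAP/TAZ 2 than in siYAP/TAZ 1. The word of siTAZ 1 is present in *ITGA2*, *ITGA5*, *ITGA6* and *ITGAV* (10.5%), all higher in siYAP/TAZ 1, the library of the matching number, than in siYAP/TAZ 2. *ITGB5* has no word of the siYAP or siTAZ siRNAs. The *ITGA6* and *ITGB1* matches to siYAP 2 are shown because both genes were split between the siYAP/TAZ libraries, at chr2:172501881-172501901 on the plus strand and chr10:32900520-32900540 on the minus strand.
ITGA6: attgatcTACTTCTgtaattg
ITGB1: gtatgttTACTTCTcaccatt
The other 4 tested genes, *ITGA2*, *ITGA3*, *ITGB4* and *ITGB5*, lack the siYAP 2 word and were also lower in siYAP/TAZ 2. The part of these words in any change was not tested.

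The genes around the integrins were counted in lists, to be read against the shares of all tested genes called, 16.9% lower and 16% higher in siHHEX and 2.13% and 6.15% in siYAP/TAZ. With the block for the replicate number, these shares were 9.73% and 9.58% in siHHEX and 2.36% and 7.3% in siYAP/TAZ. After the GC correction they were 3.16% and 3.57% in siHHEX and 6.14% and 5.33% in siYAP/TAZ. With no filter on low values, the number called in siHHEX and in siYAP/TAZ was 2 and 1 for the matrix ligands, 0 and 0 for the hemidesmosome and tetraspanin partners, 2 and 3 for the adaptors and 5 and 0 for the signalling genes. Of the 16 other integrin genes, 1 was then called higher in siHHEX and 0 in siYAP/TAZ. These counts without a filter have no share of all genes beside them and are not to be read against the shares above. Among the matrix ligands, 12 of 22 genes passed the filter, of which 3 were lower and 1 higher in siHHEX, and 1 lower and 4 higher in siYAP/TAZ. In siHHEX the number called was 2 without siHHEX 1 and 0 without either siNC library, and in siYAP/TAZ it was 0 without siYAP/TAZ 2 or either siNC library. The median of the 12 was 0.03 in siHHEX and 0.31 in siYAP/TAZ, against -0.0055 and 0.08 over all tested genes. *LAMB3*, a chain of the laminin that α3β1 and α6β4 bind, was low in both knockdowns. It was at 14.1 and 15.5 FPKM in siNC, at 7.50, 6.03 and 10.8 FPKM in siHHEX and at 8.82 and 5.96 FPKM in siYAP/TAZ, and fell by 0.83 (adjusted p = 0.023) and by 0.93 (adjusted p = 0.0481), the siYAP/TAZ call being lost with a pseudocount of 0.1. *LAMC1*, the laminin γ1 chain, fell in siHHEX by 0.67 (adjusted p = 0.00937), and both calls in siHHEX were kept after the GC correction. *COL6A1*, a collagen VI chain, rose in siHHEX by 0.45 (adjusted p = 0.0453), a call lost after the correction (0.14, adjusted p = 0.53). In siYAP/TAZ, *NPNT*, which encodes the integrin ligand nephronectin, rose by 1.03 (adjusted p = 0.0228) and *LAMB1*, the laminin β1 chain, by 0.88 (adjusted p = 0.0135), both from under 3 FPKM in siNC. In the latent TGF-β list, 3 of 9 genes passed the filter and 0 passed the test in either knockdown, while 1 was called higher in a fit of siYAP/TAZ and siNC alone. *TGFB1*, *LTBP3* and *LTBP4* had changes of 0.18, 0.32 and 0.05 in siHHEX (adjusted p of 0.347, 0.185 and 0.772), and of 0.18, 0.25 and 0.45 in siYAP/TAZ (adjusted p of 0.505, 0.437 and 0.0582).

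Of the 11 hemidesmosome and tetraspanin partners, all tested, 1 was lower and 1 higher in siHHEX and in siYAP/TAZ. In siHHEX the number called was 1 without siHHEX 3, 1 with the block and 0 without siHHEX 1 or either siNC library. In siYAP/TAZ it was 5 in a fit of siYAP/TAZ and siNC alone, 4 after the GC correction, 1 without siYAP/TAZ 2 and 0 without either siNC library. After the correction neither gene called in siHHEX kept its call, and *PLEC* (plectin, which ties β4 to keratin) was the 1 called, at -0.65 (adjusted p = 0.0188; -0.31 and 0.155 uncorrected). It was also called in siYAP/TAZ after the correction (-0.74, adjusted p = 0.0124, against -0.49 and 0.113 uncorrected). In siTEAD1/2/3/4, which has no replicate, the corrected value of *PLEC* was -0.81. *PLEC* was named after its values were seen. *COL17A1*, the transmembrane collagen of hemidesmosomes, was at 0.638 and 0.646 FPKM in siNC, at 1.51, 1.17 and 2.18 FPKM in siHHEX and at 3.52 and 2.53 FPKM in siYAP/TAZ. Every knockdown library was above siNC, and it rose by 0.66 in siHHEX (adjusted p = 0.0245) and by 1.28 in siYAP/TAZ (adjusted p = 0.00996), the siHHEX call being lost after the GC correction (0.49, adjusted p = 0.0982). *DST*, whose epithelial product ties hemidesmosomes to keratin, fell in siHHEX by 0.39 (adjusted p = 0.0442; -0.07 and 0.696 after the correction). *SLC3A2*, which binds β1 tails, was at 151 and 156 FPKM in siNC and at 102 and 76.5 FPKM in siYAP/TAZ, and fell there by 0.79 (adjusted p = 0.0307).

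Of 23 tested adhesion adaptors (28 listed), 5 were lower and 3 higher in siHHEX, and 4 lower and 0 higher in siYAP/TAZ. In siHHEX the number called was 2 without siHHEX 1, 4 with the block and 0 without either siNC library, and in siYAP/TAZ it was 0 without siYAP/TAZ 2 or either siNC library. *VCL* (vinculin) had the largest fall in siHHEX, from 32.7 and 31.5 FPKM to 10.1, 18.6 and 16.7 FPKM. It fell by 1.08 (adjusted p = 0.0113) and kept the call after the GC correction (-1.01, adjusted p = 0.0328), but lost it under this correction with the block and with no filter on low values. *FERMT2*, a kindlin that activates integrins, fell by 0.91 (adjusted p = 0.0287; -0.53 and 0.158 after the correction). *PARVB* (β-parvin) rose by 0.53 (adjusted p = 0.0205) and *SHARPIN*, an integrin inhibitor, by 0.48 (adjusted p = 0.0268), and neither passed after the correction, with 0.46 (adjusted p = 0.0709) and -0.008 (adjusted p = 0.975). In siYAP/TAZ, *PXN* (paxillin) fell by 0.94 (adjusted p = 0.0301) and *FLNA* (filamin A) by 0.89 (adjusted p = 0.00863), and their changes in siHHEX were -0.30 (adjusted p = 0.237) and -0.27 (adjusted p = 0.0906). After the GC correction, *PXN* was at -0.55 in siHHEX (adjusted p = 0.0833) and *FLNA* was called there (-0.55, adjusted p = 0.0147). Of the 8 adaptors called in siHHEX, 1 (*VCL*) was called after the correction, together with *FLNA* and *ZYX* (zyxin, -0.45, adjusted p = 0.0337), which had not been called before. Under the correction with the block, 0 of the 23 adaptors were called in siHHEX. *ZYX* was named after its values were seen.

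Of 19 tested adhesion signalling genes (21 listed), 6 were lower and 3 higher in siHHEX, and 1 lower and 1 higher in siYAP/TAZ. In siHHEX the number called was 4 with the block, 1 after the GC correction (*CAV1*) and 0 without either siNC library, and in siYAP/TAZ it was 0 with any siYAP/TAZ or siNC library left out. *CAV1*, the caveolin that links integrins to Src kinases, was at 188 and 180 FPKM in siNC, at 60.3, 91.2 and 76.4 FPKM in siHHEX, at 86.3 and 108 FPKM in siYAP/TAZ and at 99.5 FPKM in siTEAD1/2/3/4. All knockdown libraries were far below siNC. *CAV1* fell by 1.28 in siHHEX (adjusted p = 0.00387) and by 0.92 in siYAP/TAZ (adjusted p = 0.0228), and both calls were kept after the GC correction, at -0.95 (adjusted p = 0.0147) and -0.99 (adjusted p = 0.0104). *PAK2*, a kinase downstream of Rac, fell in siHHEX by 0.66 (adjusted p = 0.0172), *RAPGEF1*, an exchange factor for Rap, rose by 0.64 (adjusted p = 0.0111) and *SHC1*, an adaptor, rose by 0.54 (adjusted p = 0.0161). After the correction these were -0.22, 0.41 and 0.32, with adjusted p of 0.378, 0.0687 and 0.104. *DOCK1*, an exchange factor for Rac, rose in siYAP/TAZ by 0.60 (adjusted p = 0.0425).

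The labelled cell type was checked against its markers. The 5 epithelial markers were present in all libraries and summed to 3371 and 3513 FPKM in siNC, 3114, 3439 and 3654 FPKM in siHHEX, 2027 and 1973 FPKM in siYAP/TAZ and 2712 FPKM in siTEAD1/2/3/4, *KRT8* being the most abundant in each. *KRT18* and *KRT8*, the keratins of simple epithelium, fell in siYAP/TAZ by 1.22 (adjusted p = 0.000861) and 0.88 (adjusted p = 0.00227). Of the 5 markers, 2 were lower and 0 higher in siYAP/TAZ and in siHHEX alike, and *CDH1* and *KRT19* passed the test in neither. *EPCAM*, an epithelial adhesion molecule, and *KRT18* fell in siHHEX by 0.38 (adjusted p = 0.0289) and 0.29 (adjusted p = 0.0347). After the GC correction the siHHEX values were -0.25 for *EPCAM* (adjusted p = 0.106), -0.68 for *KRT18* (adjusted p = 0.00487) and -0.34 for *KRT8* (adjusted p = 0.043), so that *EPCAM* lost the call and *KRT8* gained one. The 6 fibroblast markers summed to 0.994 and 0.828 FPKM in siNC, 0.926, 0.726 and 1.99 FPKM in siHHEX, 1.33 and 2.80 FPKM in siYAP/TAZ and 1.69 FPKM in siTEAD1/2/3/4. *COL1A1* made up most of that sum, and *DCN* and *LUM* were listed at 0 in siNC 1, siNC 2, siHHEX 1, siHHEX 2 and siTEAD1/2/3/4. The 5 leukocyte markers summed to at most 0.31 FPKM and the 5 endothelial markers to at most 0.221 FPKM. The fibroblast sum was highest in siYAP/TAZ 2 and siHHEX 3, and the part of these markers in the integrin values was not tested.

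*ITGA2* had the widest range of condition means of the 10 genes, 1.22 on the log2 scale. The genes whose level followed it most closely over the 8 libraries were *PCNP*, *SNX30* and *ANKRD28*, with Pearson's r of 0.987, 0.981 and 0.98, given as a description over libraries that share their GC trends. *PCNP* was at 49.8 and 49.6 FPKM in siNC, at 30.7, 33.8 and 32.9 FPKM in siHHEX, at 45.7 and 43.5 FPKM in siYAP/TAZ and at 42.8 FPKM in siTEAD1/2/3/4, with the siHHEX libraries lowest and siNC highest, as for *ITGA2*.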

How the data were processed

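RNA of 8 HCT-116 libraries was extracted with Trizol and sequenced on an Illumina HiSeq instrument. The deposited files hold FPKM, with 1 value for each gene in each library. The submitters' processing notes name Trimmomatic 0.36, HISAT2 2.0.5, Cufflinks 2.2.1 and HTSeq 0.9.1, and the genome build and annotation of the RNA-seq are not given in the sources used here. Conditions and replicate numbers came from the labels, which give no batch. Of 20030 rows, 3754 were listed at 0 in every library. A gene entered the tests when 2 or more libraries had it at 1 FPKM or more (10677 genes). Values were transformed to log2(FPKM + 1), and limma 3.58.1 (R 4.3.3) fitted the 4 groups of 8 libraries together with a variance trend, two-sided, with Benjamini-Hochberg adjustment over all tested genes. The study names DESeq, a method for counts, which could not be run on FPKM values. The GC correction subtracted, in each library, a trend fitted with natural splines (4 degrees of freedom each) on transcript GC content and log length (GENCODE, 96.9% of tested genes). The siRNA sequences, which differ by a base or so between their listings, were placed by best match. The tests were tried on simulated data. Alternatives were no filter, another pseudocount, a fit restricted to the groups compared, a replicate block, median scaling, the GC correction and leaving out each replicated library.

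The integrin genes and the 12 gene lists were chosen with earlier results of these data known. Named genes are the 10 integrin genes, the knockdown targets, the 2 highest and 2 lowest called genes of each list in siHHEX and in siYAP/TAZ, lists with under 4 tested genes, and the 3 genes most like *ITGA2*. Other steps used Python 3.11.15, numpy 2.4.6, pandas 2.3.3 and matplotlib 3.10.9.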

Additional observations from a re-analysis of the deposited data

Results flagged for a closer look

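For 2 integrin genes, the changes in siHHEX and in siYAP/TAZ differed by a test of the difference itself. The log2 difference between siHHEX and siYAP/TAZ was -0.84 for *ITGA2* (limma, adjusted p = 0.00606) and -0.50 for *ITGB1* (adjusted p = 0.0394). With the trend on GC content and length taken off, these were -0.26 and -0.00033, with adjusted p of 0.334 and 0.999. The 2 are of 8 tested integrin genes, and 25.9% of all tested genes were lower in siHHEX in this comparison. The *ITGB1* call was also lost without a filter, in a fit of only these groups, with the block, after median scaling and with any siHHEX library or siYAP/TAZ 1 left out.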

How the results depend on the processing

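In siHHEX, the 5 integrin calls were kept with a pseudocount of 0.1, in a fit of only the groups compared, after median scaling and with the replicate block. With the block, 9.73% of all tested genes were lower in siHHEX and 9.58% higher. The integrin calls were 3 without a filter on low values, where *ITGB1* and *ITGB5* were lost. They were 2 after the GC correction, 2 after this correction with the block and 2 by the study's criterion. In siYAP/TAZ, in place of 0, there were 2 in a fit of only the groups compared, 2 after median scaling, 1 after the GC correction, 2 with this correction and the block, and 1 with the block (*ITGB5*, adjusted p = 0.0345). With the block, 2.36% of all tested genes were lower in siYAP/TAZ and 7.3% higher. Between siHHEX and siYAP/TAZ, in place of 2, there was 1 without a filter, 1 in a fit of only the groups compared, 1 with the block, 0 after the GC correction, 0 with it and the block, and 0 by the study's criterion. With the block, 18% of all tested genes were lower in siHHEX than in siYAP/TAZ and 9.49% higher. Such shares are not given for no filter, median scaling or the fit of only the groups compared. Nor are they given for the GC correction with the block or for leaving out any siHHEX or siYAP/TAZ library. With each library left out in turn, the counts ranged from 0 to 6 in siHHEX, from 0 to 1 in siYAP/TAZ and from 1 to 3 between the knockdowns; *ITGB1* was the only gene past 1.5-fold in siTEAD1/2/3/4 under every setting run. The 6 calls in siHHEX, reached without siHHEX 2, were 5 lower and 1 higher, the higher one being *ITGA5*. Same-numbered libraries did not deviate together (correlations from -0.0704 to 0.0215). As the numbers may also stand for different siRNAs, this cannot show whether they pair the samples.

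Leaving out 1 library turned the sign of 6 changes that had not passed the test, and the ranges were -0.265 to 0.0113 for *ITGA3* and -0.32 to 0.23 for *ITGB4* in siHHEX, -0.255 to 0.0267 for *ITGA5* and -0.507 to 0.0834 for *ITGB1* in siYAP/TAZ, and -0.087 to 0.617 for *ITGA3* and -0.20 to 0.19 for *ITGB5* between the knockdowns. Median scaling turned *ITGB4* in siHHEX (0.0124) and *ITGB5* between the knockdowns (0.11), and the GC correction turned *ITGAV* between the knockdowns (0.36, and 0.27 with the block) and *ITGB4* in siTEAD1/2/3/4 (-0.0226). The cause was not tested. Of the values of single genes under an alternative, 223 kept direction and side of the threshold, 30 lost the call, 14 gained it and 13 turned. The reads behind each FPKM are unknown, so that no direction was read for *ITGB6* and *ITGB8*.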
